A study of Mus musculus with 8 samples.

Results

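AMPA and kainate receptors were examined in the hippocampus of BTBR mice and of B6 controls through every array probe that carries the name of one of their 9 subunit genes: Gria1, Gria2, Gria3 and Gria4 for AMPA receptors and Grik1, Grik2, Grik3, Grik4 and Grik5 for kainate receptors. These are 9 of the 27373 gene names on the array, and matching them in the scanner files found 20 of the 41174 non-control probes, 12 for AMPA and 8 for kainate subunits. RNA came from the whole hippocampus of 4 BTBR (BTBR T+ Itpr3tf/J) and 4 wild type B6 (C57BL/6J) mice, 1 mouse per array. All were untreated males aged 5 months. BTBR is an inbred strain used as a model of autism, so that both groups differ at many loci and not in a single engineered gene. One label field of the BTBR samples names C57BL/6J as their background, but they were taken as BTBR from their titles and genotype.

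AMPA receptors are glutamate-gated cation channels built from 4 subunits, and they carry most fast excitatory transmission in the hippocampus. Gria1 and Gria2 encode the main subunits of pyramidal neurons, and the edited Gria2 protein keeps calcium out of the channel. Kainate receptors are related tetramers, in which Grik1, Grik2 and Grik3 encode subunits that form channels by themselves and Grik4 and Grik5 encode high-affinity subunits that need one of the others. Both kinds of receptor work with auxiliary subunits, scaffold proteins and assembly factors, which set their number and kinetics at the synapse.

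The 8 arrays sat on 2 slides, slide 1 with replicates 1 and 2 of both strains and slide 2 with replicates 3 and 4. Between 56.8% and 71.9% of the probes of an array were well above background, as the scanner software calls it, and no probe was saturated. Values are normalized log2 intensities, and differences are BTBR minus B6 on that scale. The number of arrays limits their precision, and the smallest p that an exact permutation test can give with 4 arrays against 4 is 0.0286. Marker genes set BTBR replicates 1 and 2, both on slide 1, apart from the other 6 arrays. The mean over 8 thalamus markers was 13.001 in BTBR replicate 1 and 10.83 in BTBR replicate 2, against 10.14 to 10.41 in B6. For 6 striatum markers it was 12.11 and 14.15, and B6 replicate 2 had 12.72 against 10.54 to 10.77 in the other B6 arrays. The 5 choroid plexus markers averaged 13.14 and 13.04, above the 11.02 to 12.31 of B6. In the opposite direction, 6 dentate granule cell markers averaged 10.23 and 9.40 (B6 10.995 to 12.27), 5 CA1 pyramidal cell markers 12.49 and 12.45 (B6 13.35 to 13.66) and 5 excitatory neuron markers 14.48 and 14.26 (B6 15.09 to 15.43). BTBR replicates 3 and 4 lay between 11.59 and 11.64, between 13.70 and 13.74 and between 15.25 and 15.38 for these 3 lists. Within the CA1 list 4 genes had a lower and 1, Wfs1, a higher BTBR mean (difference 0.71). The 5 CA2 and CA3 pyramidal cell markers averaged 13.35 and 13.14 in BTBR replicates 1 and 2 (B6 13.38 to 13.595). In BTBR replicates 3 and 4 they averaged 13.54 and 13.25. Of these 5 genes, 3 had a lower and 2 a higher BTBR mean. The 7 oligodendrocyte markers averaged 14.58 and 14.84 in BTBR replicates 1 and 2 (B6 14.13 to 14.31). The mean over 6 astrocyte markers was lower in all 4 BTBR arrays (13.36 to 13.47) than in B6 (13.67 to 13.78). It differed by −0.28 on slide 1 and −0.35 on slide 2. Gfap, the only astrocyte marker called by limma, differed by −1.30, against −0.26 to 0.19 for the others. Of the 6 genes, 1 had a higher BTBR mean, Aldh1l1. The part of the astrocyte markers in the results was not tested. The main results are also given without BTBR replicates 1 and 2. That comparison sets 2 BTBR arrays, both on slide 2, against 4 B6 arrays from both slides, without a term for slide. Strain and slide are therefore partly mixed in it. In bulk tissue fewer cells of a type and less RNA per cell cannot be told apart. That the mice of a strain came from separate litters or cages is not stated, so p-values measure the spread between these 8 mice.

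Each probe is a 60-base oligonucleotide read on 1 strand. Of 190 pairs of subunit probes, 1 pair was alike over most of its length, a Gria1 and a Gria3 probe with 43 identical bases in 56 aligned ones. The next pair was 55.8% identical. These probes are printed 5′ to 3′ with the identical bases in capitals, since they read the same stretch of related genes and showed different values.
Gria1 (A_51_P498031, chr11:57102930-57102989, mm9, plus strand): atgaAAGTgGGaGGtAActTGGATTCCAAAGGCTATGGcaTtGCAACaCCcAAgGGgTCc
Gria3 (A_52_P179309, chrX:39007367-39007426, mm9, plus strand): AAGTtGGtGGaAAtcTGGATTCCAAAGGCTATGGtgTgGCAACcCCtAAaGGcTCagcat

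The first 30 bases of the other 3 probes on which the account of the subunits turns most are given in lower case, to identify what was measured.
Gria1 (A_52_P39575, chr11:57143457-57143516, mm9, plus strand): aaactctgaaagagattgacatttttctca
Gria2 (A_52_P575176, chr3:80492452-80492511, mm9, minus strand): tggcatgggaatgaatgtcagtgtgactga
Grik4 (A_51_P384994, chr9:42328570-42328629, mm9, minus strand): gccgagagagcagtccaagaattgatggtg
The files place these probes by genome position only, and exon and UTR annotation was not used here.

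Among the AMPA and kainate subunits, none of the 18 probes tested was differentially expressed between the BTBR and the B6 hippocampus. With limma, 0 of 18 had a Benjamini-Hochberg adjusted p under 0.05, where 7.61% of the 27982 probes tested did (3.31% with a higher and 4.30% with a lower BTBR level). At an unadjusted p under 0.05 limma also gave 0 of 18, against 18.5% of all probes. The rank product, the test named in the study's methods, called 0 of 18 at a percentage of false prediction (pfp) of 0.05 or less, against 3.93%. The arrays of both strains overlapped for each of the 18 probes, while 14.2% of all probes showed no overlap. The mean was lower in BTBR for 13 of the 18 probes, compared with 46.7% of all probes. Among these 13, Grik1 A_51_P282609 was tested only because its B6 arrays were well above background. Differences ran from −0.63 (Grik4) to 0.23 (Gria4), with a median of −0.067, beside 0.011 for all probes. The subunit median was −0.11 without BTBR replicate 3 and −0.028 without BTBR replicates 1 and 2, and it was −0.11 within slide 1 and −0.027 within slide 2. The median SD between mice of the subunit probes was 0.22 in BTBR, against 0.138 for all probes tested, and 0.108 in B6, against 0.106. Both Grik3 probes were too dim to be tested.

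**Figure D1:**
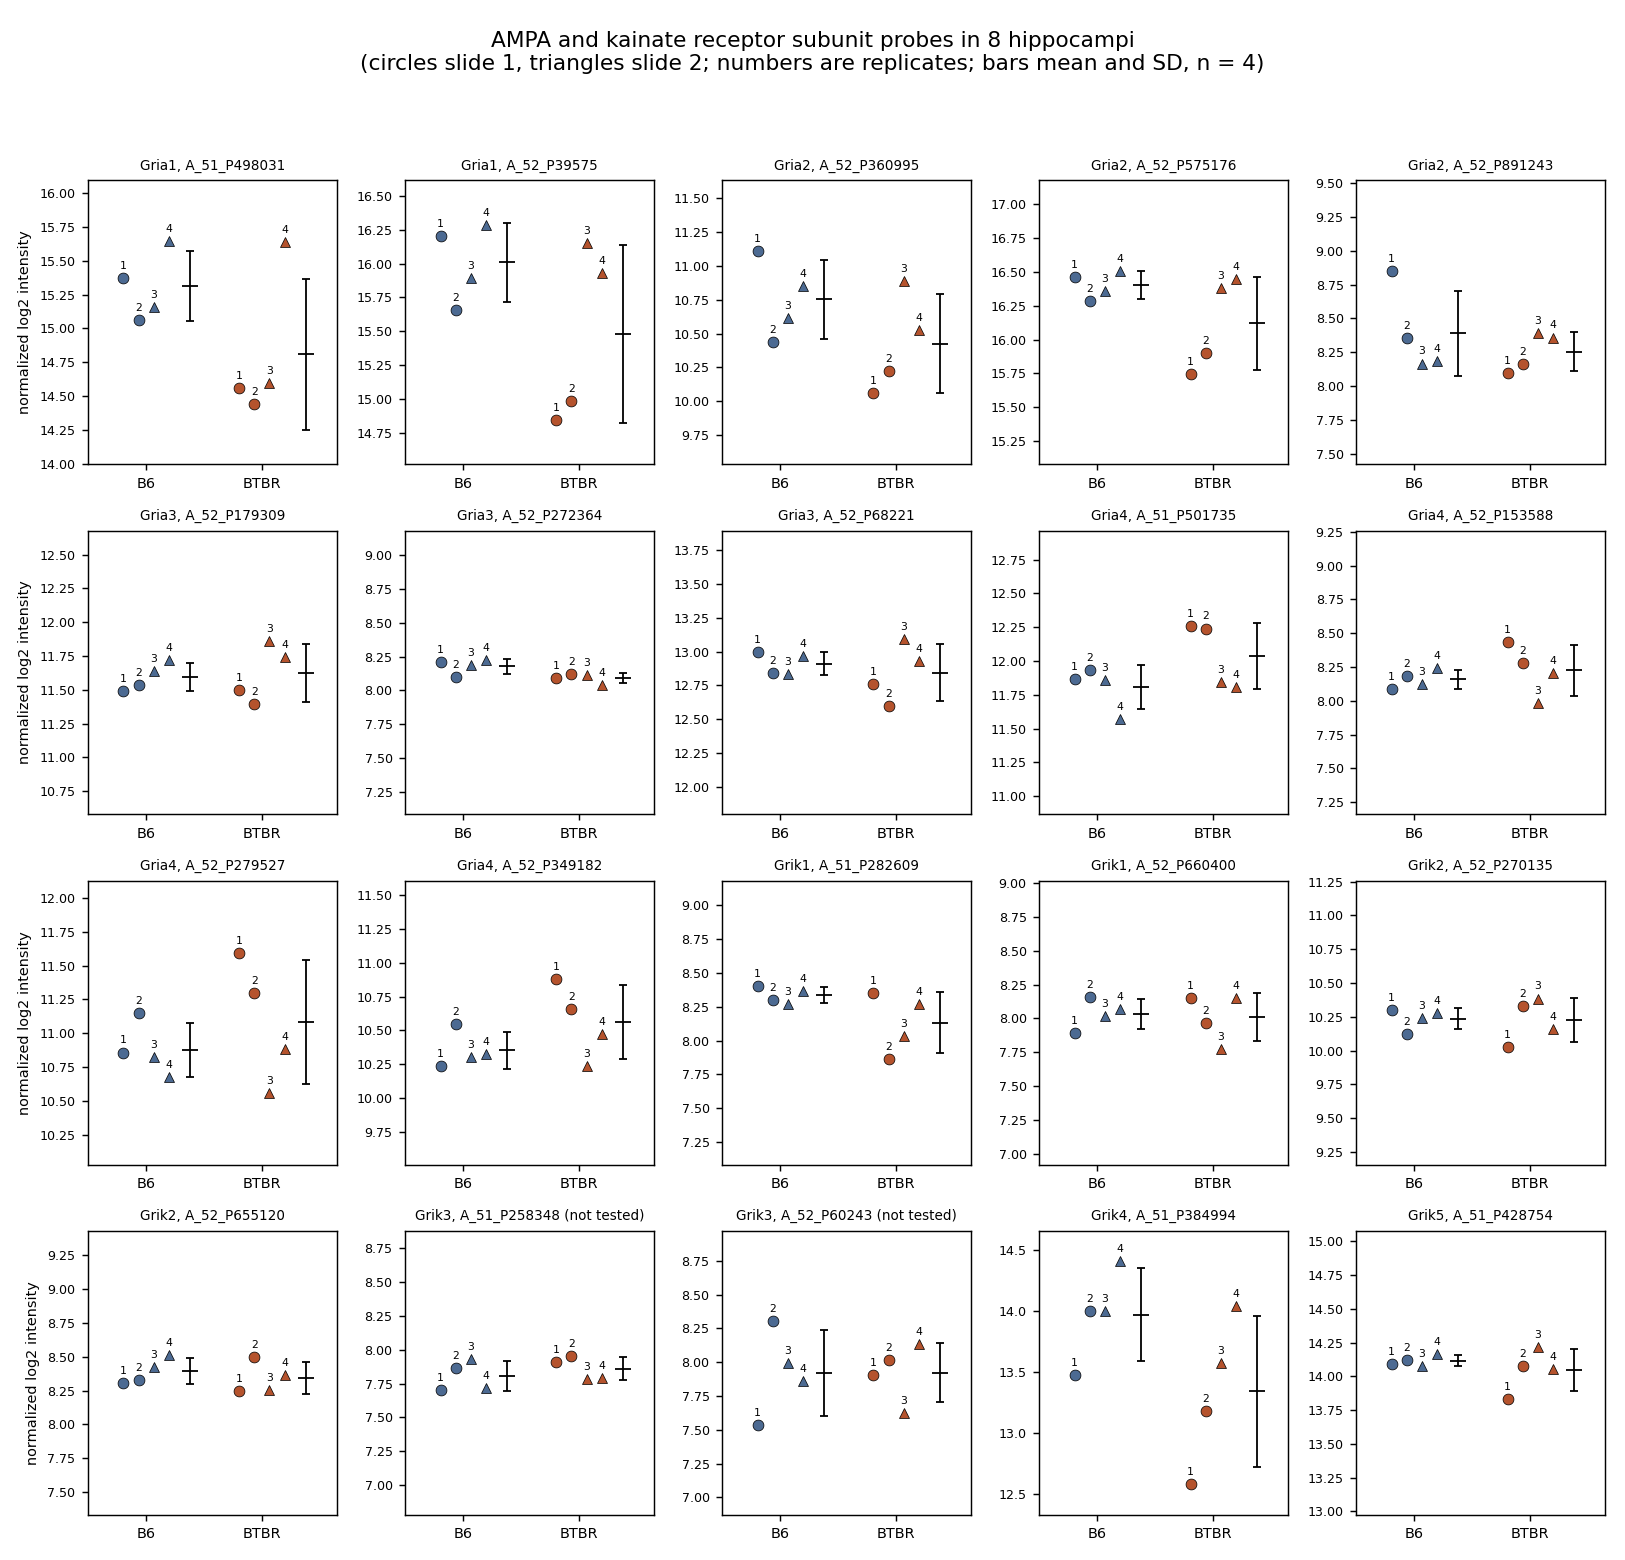
Normalized log2 intensity of the 20 AMPA and kainate subunit probes on each of the 8 arrays (circles slide 1, triangles slide 2, numbers the replicates), with mean and SD per strain (n = 4); axis positions differ between panels. For Gria1, Gria2 and Grik4 the low points are mainly BTBR replicates 1 and 2, and no panel of a tested probe shows separate strains.

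Gria1, the subunit recruited to synapses in long-term potentiation, had the largest AMPA differences. Probe A_51_P498031 read 15.37, 15.06, 15.16 and 15.65 in B6 replicates 1 to 4 and 14.56, 14.44, 14.60 and 15.64 in BTBR replicates 1 to 4. BTBR replicates 1, 2 and 3 thus lay below all B6 arrays and BTBR replicate 4 lay next to the highest of them. Means were 15.31 ± 0.26 in B6 and 14.81 ± 0.56 in BTBR (SD, n = 4), a difference of −0.50 (95% interval −1.09 to 0.09, limma adjusted p = 0.356). Without BTBR replicate 4 the difference was −0.78 and was called (limma adjusted p = 0.0133).

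The other Gria1 probe, A_52_P39575, lies 40.5 kb downstream and divided the BTBR mice differently. It read 16.20, 15.65, 15.89 and 16.29 in B6 and 14.85, 14.99, 16.15 and 15.93 in BTBR. Here BTBR replicates 1 and 2 were below B6 and replicates 3 and 4 were within its range, so that BTBR replicate 3 was low with one Gria1 probe only. The difference was −0.53 (95% interval −1.21 to 0.15, limma adjusted p = 0.409). Without BTBR replicates 1 and 2 it was 0.03, and that of A_51_P498031 was −0.19.

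Gria2, whose protein governs the calcium permeability of the channel, had lower BTBR means with each of its 3 probes, and the same mice were low. Probe A_52_P575176 read 16.46, 16.28, 16.36 and 16.51 in B6 and 15.75, 15.90, 16.38 and 16.45 in BTBR. BTBR replicates 1 and 2 lay below B6, whereas replicates 3 and 4 lay among the B6 values. Means were 16.40 ± 0.10 and 16.12 ± 0.35 (SD, n = 4), a difference of −0.28 (95% interval −0.64 to 0.07, limma adjusted p = 0.396). Without BTBR replicates 1 and 2 this difference was 0.01.

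Probe A_52_P360995 of Gria2 read 11.11, 10.44, 10.61 and 10.85 in B6 and 10.06, 10.22, 10.89 and 10.52 in BTBR, a difference of −0.33 (95% interval −0.78 to 0.12). It showed the same order, with BTBR replicates 1 and 2 lowest. Without both of them the difference was −0.045, and without BTBR replicate 1 or B6 replicate 1 alone it was −0.21. The dimmest Gria2 probe, A_52_P891243, differed by −0.14 (95% interval −0.48 to 0.21), with B6 replicate 1 at 8.85 and the other 7 arrays between 8.09 and 8.39, and by −0.012 without BTBR replicates 1 and 2.

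Gria3, an X-linked subunit that pairs with Gria2, had small differences with all 3 of its probes. Its probes A_52_P179309, A_52_P68221 and A_52_P272364 differed by 0.03 (95% interval −0.23 to 0.28), −0.06 (−0.31 to 0.18) and −0.09 (−0.22 to 0.04). The first of these is the probe that shares 43 bases with Gria1 A_51_P498031. It read 11.50 and 11.39 in BTBR replicates 1 and 2 and 11.86 and 11.74 in replicates 3 and 4, around B6 values of 11.49 to 11.72. So BTBR replicate 3, low for the Gria1 probe, was the highest array for the Gria3 probe. Without BTBR replicates 1 and 2 the Gria3 probe A_52_P179309 differed by 0.20 (limma adjusted p = 0.309). A_52_P272364 came nearest to a separation of the strains among the 20 probes, with 8.10 to 8.22 in B6 and 8.04 to 8.12 in BTBR (exact permutation test, two-sided p = 0.0857).

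Gria4, which gives fast-gating channels and is prominent in interneurons and in the thalamus, was the AMPA subunit with higher BTBR means. All 4 of its probes had positive differences, between 0.07 and 0.23, and none was called. Probe A_51_P501735 read 11.86, 11.93, 11.86 and 11.57 in B6 and 12.26, 12.24, 11.85 and 11.81 in BTBR (difference 0.23, 95% interval −0.06 to 0.53, limma adjusted p = 0.406). Probe A_52_P279527 read 10.86, 11.15, 10.83 and 10.68 in B6 and 11.60, 11.30, 10.56 and 10.88 in BTBR (difference 0.21, 95% interval −0.27 to 0.68). With both probes BTBR replicates 1 and 2 were the highest of the 8 arrays, and the others overlapped. These are the arrays with the high thalamus and striatum markers, whose part in the result was not tested.

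Probe A_52_P349182 of Gria4 read 10.24, 10.55, 10.30 and 10.33 in B6 and 10.88, 10.66, 10.24 and 10.47 in BTBR, again with BTBR replicates 1 and 2 on top. Without these mice the differences of A_51_P501735, A_52_P349182 and A_52_P279527 were 0.02, 0.0044 and −0.16. A_52_P153588, 244.9 kb from the farthest of the others and well above background on 3 of 4 arrays of each strain, differed by 0.07 (95% interval −0.15 to 0.29).

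Among kainate subunits, Grik4, the high-affinity subunit concentrated in CA3 and the dentate gyrus, had the largest difference and the smallest p of all 18 probes (limma, unadjusted p = 0.0699, adjusted p = 0.325). Its probe read 13.48, 14.00, 14.00 and 14.41 in B6 and 12.58, 13.18, 13.57 and 14.04 in BTBR. BTBR replicates 1 and 2 were below all B6 arrays, while B6 replicate 1 was below BTBR replicates 3 and 4. Means were 13.97 ± 0.38 and 13.34 ± 0.62 (SD, n = 4), a difference of −0.63 (95% interval −1.32 to 0.06), or a BTBR level of 0.647 times that of B6 (0.401 to 1.04). Without BTBR replicates 1 and 2 the difference was −0.16.

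The genes whose probes followed Grik4 most closely over the 8 arrays were Camkv (Pearson r = 0.983), Kit (0.980), Iqsec3 (0.977), Sh3bgrl (0.972) and Hspa13 (0.970). This order describes 8 arrays that share 2 slides and 2 strains, and it was taken over all tested probes. None of the 5 probes was called by limma, with differences of −0.54 for Kit, −0.29 for Sh3bgrl, −0.26 for Iqsec3, −0.13 for Camkv and −0.098 for Hspa13.

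Grik5, the other high-affinity subunit, read 14.07 to 14.17 in B6 and 13.84, 14.08, 14.22 and 14.05 in BTBR, a difference of −0.07 (95% interval −0.26 to 0.12), with BTBR replicate 1 lowest. Grik2, the principal channel-forming subunit of hippocampal kainate receptors, differed by −0.01 (95% interval −0.22 to 0.19) with A_52_P270135 and by −0.05 (−0.23 to 0.13) with A_52_P655120.

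Grik1, a subunit of interneurons, was measured near the detection limit. Probe A_51_P282609 was well above background on 4 B6 and 2 BTBR arrays and differed by −0.20 (95% interval −0.45 to 0.04). The difference was −0.28 to −0.11 when single arrays were left out and −0.48 with the processed signal of the scanner software. This probe was tested only because of its B6 arrays, the strain with the higher mean, so its direction cannot be separated from that filter. A_52_P660400, above background on 3 arrays of each strain, differed by −0.02 (95% interval −0.25 to 0.20). Grik3, which encodes a low-affinity subunit, was well above background on 1 of 4 B6 and 2 of 4 BTBR arrays with A_51_P258348 and on 2 of 4 arrays of each strain with A_52_P60243. Its values lay between 7.54 and 8.30 in B6 and between 7.63 and 8.14 in BTBR, and no difference was detectable at this signal.

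**Figure D2:**
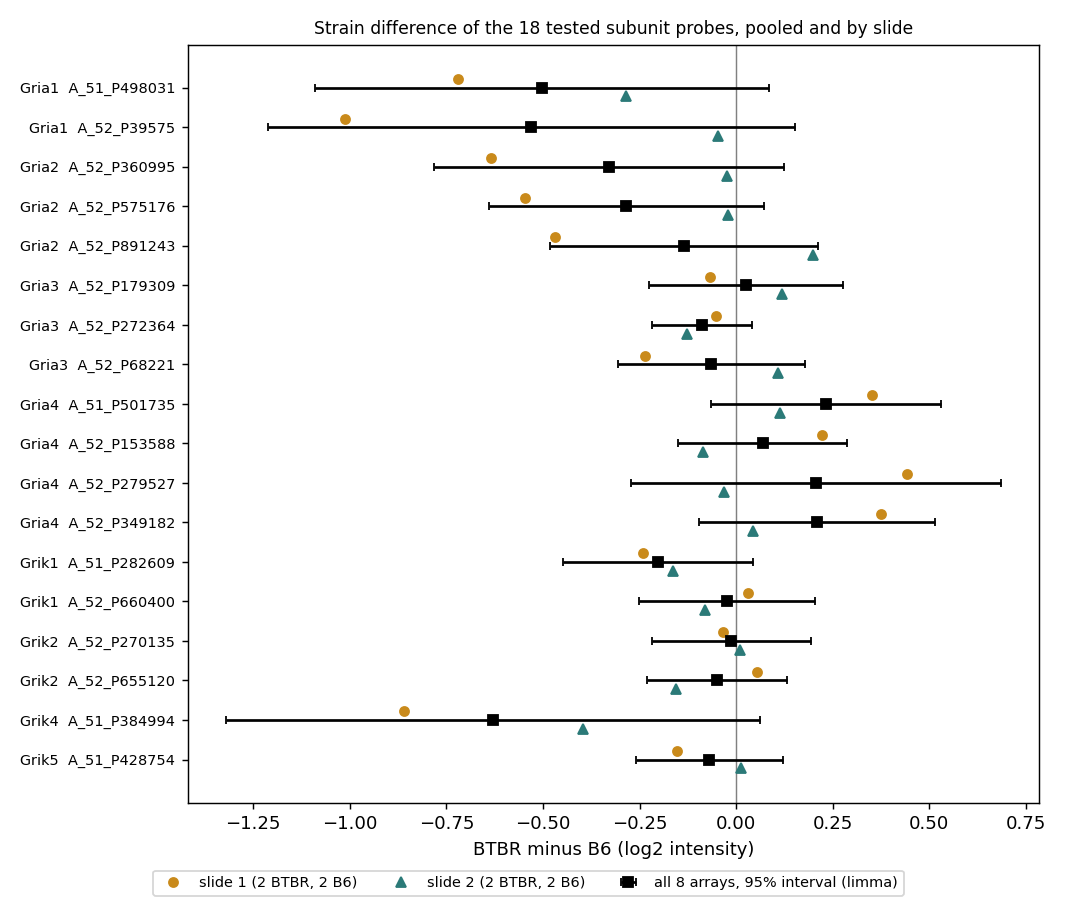
Difference BTBR minus B6 (log2 intensity) of the 18 tested subunit probes, with the limma estimate and its 95% interval over all 8 arrays (squares) and the estimates from slide 1 (circles) and slide 2 (triangles). Every interval includes 0, and for Gria1, Gria2, Gria4 and Grik4 the slide 1 estimates lie farther from 0 than those of slide 2.

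Since each slide held 2 mice of each strain, the strain difference was also estimated for each slide. Both estimates came from a limma fit over all 8 arrays, with the residual spread pooled over both slides. Within slide 1, limma called 2 of 18 subunit probes (8.66% of all probes), Gria1 A_52_P39575 with −1.01 (adjusted p = 0.029) and Gria2 A_52_P575176 with −0.55 (adjusted p = 0.0257). Within slide 2 it called 0 of 18 (3.70% of all probes), with differences of −0.05 and −0.02 for these probes. At an unadjusted p under 0.05 the counts were 8 of 18 (25.2% of all probes) and 0 of 18 (12.4%). The difference between slides, tested as an interaction of strain and slide, passed the adjusted threshold for 0 of 18 probes and for none of the 27982 probes. Without adjustment 3 of 18 were under 0.05, against 9.93% of all probes. These were A_52_P39575 of Gria1 (limma interaction, unadjusted p = 0.0127) and A_52_P575176 and A_52_P891243 of Gria2 (limma interaction, unadjusted p = 0.0101 and 0.0171).

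The slide 1 and slide 2 differences were −0.86 and −0.40 for Grik4, −0.72 and −0.29 for Gria1 A_51_P498031, and 0.35 and 0.11 for Gria4 A_51_P501735. Marker lists also differed by slide. Dentate granule cell markers differed by −1.82 on slide 1 and −0.17 on slide 2, CA1 markers by −0.95 and 0.10, excitatory neuron markers by −0.80 and −0.002, and thalamus markers by 1.69 and 0.01. CA2 and CA3 markers differed by −0.23 and −0.09, and interneuron markers by 0.24 and −0.18. As slide 1 held both BTBR mice with unusual marker levels, slide and these mice cannot be told apart, and their part in the subunit values was not tested.

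**Figure D3:**
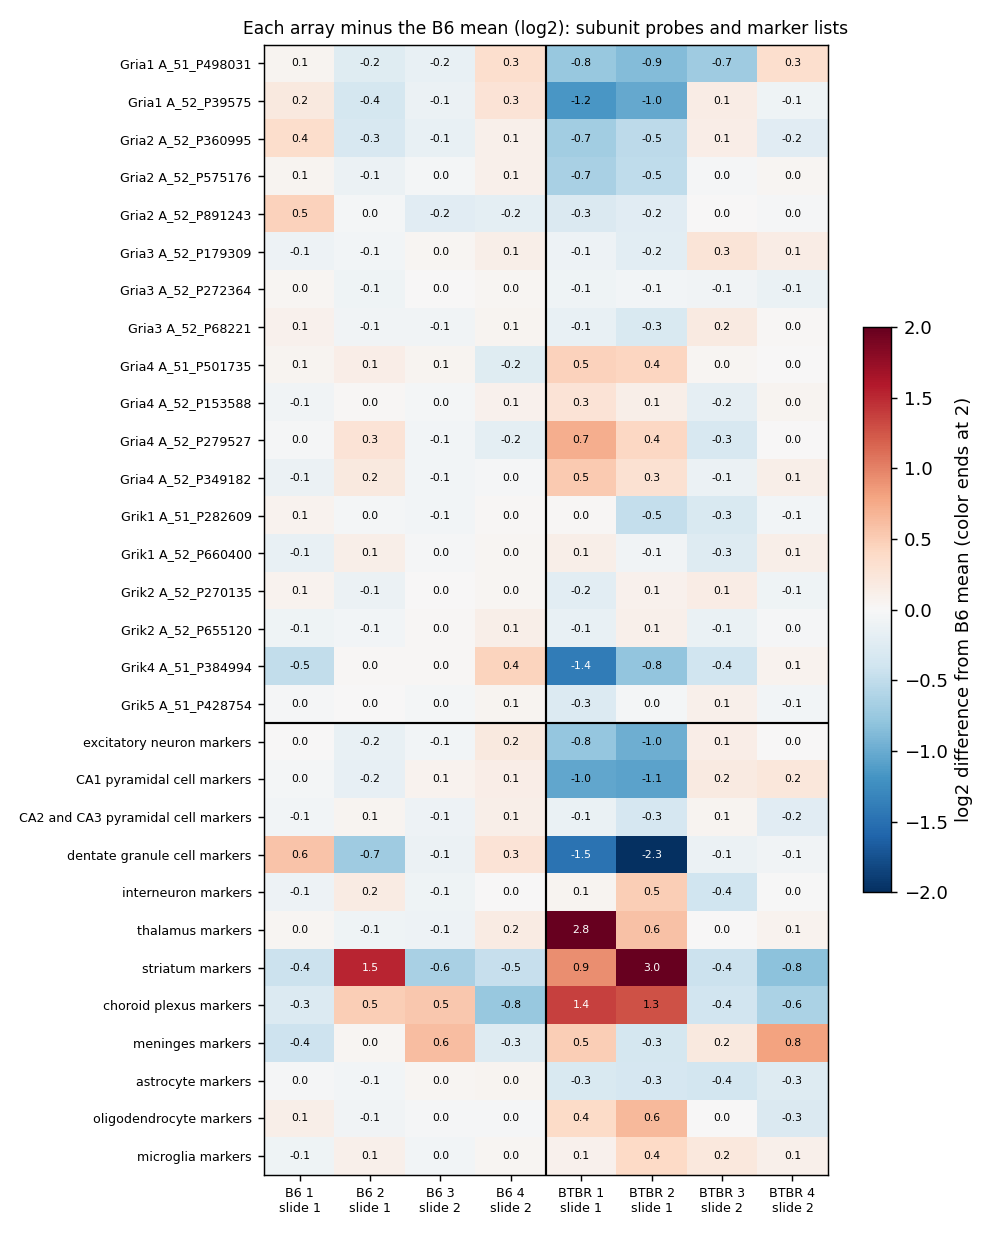
Each array minus the B6 mean (log2; blue lower, red higher, color ending at 2) for the 18 tested subunit probes and for the mean of 12 marker lists. BTBR replicates 1 and 2 combine low Gria1, Gria2, Grik4, CA1 and dentate values with high thalamus, striatum or choroid plexus values, and BTBR replicates 3 and 4 stay near the B6 mean for most rows.

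Genes that assemble, anchor and modify these receptors included called ones. Of 44 genes listed for these roles, 41 had a probe and 40 were tested, and limma called 5 with at least 1 probe, 2 up-regulated and 3 down-regulated, where 1849 of the 18399 gene names tested, or 10%, had a call (4.53% up, 5.88% down). The rank product called 7 of the 40 (5.46% of all gene names), which were these 5 genes, C1ql2 and Grid1. The median difference over the 68 tested probes of these genes was 0.022, beside 0.011 for all probes, and without BTBR replicates 1 and 2 it was 0.045. The genes called by limma are shown by the first 30 bases of their called probes, to identify the measured transcript.
Frrs1l (A_51_P307559, chr4:56973771-56973830, mm9, minus strand): tacttcttagtaagtgttcagcaaactgat
Frrs1l (A_52_P440314, chr4:56975745-56975804, mm9, minus strand): cagtaaccgcctgtataattttcgcttcta
Cacng7 (A_51_P327675, chr7:3338624-3339037, mm9, plus strand): tattctgaagacagtgcgcacggctacacc
Npcd (A_51_P158529, chr15:79620276-79620335, mm9, minus strand): aggccgatttgacgccacacaggccttcgt
Nptx2 (A_52_P187058, chr5:145317905-145317964, mm9, plus strand): catctggtgccaaaagttcatttgcagctt
Adarb2 (A_52_P105429, chr13:8757849-8757908, mm9, plus strand): agctcatttctaacattcatcaagctagtt

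Frrs1l, which encodes an endoplasmic reticulum protein needed for the assembly of AMPA receptors, was down-regulated in BTBR with both of its probes. A_51_P307559 read 13.70, 13.55, 13.70 and 13.90 in B6 and 12.19, 11.94, 12.10 and 12.24 in BTBR, so that all BTBR arrays were lower by more than 1 log2 unit. The difference was −1.60 ± 0.094 (SE; limma adjusted p = 9.2e-06), a BTBR level of 0.330 times that of B6. A_52_P440314 gave −1.56 ± 0.13 (limma adjusted p = 0.000105). The slide 1 and slide 2 values were −1.56 and −1.64 for the first probe, and without BTBR replicates 1 and 2 it stood at −1.55. The other 5 assembly genes (Cpt1c, Sacm1l, Porcn, Abhd6 and Abhd12) had no call with limma or the rank product, with differences between −0.07 and 0.21.

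Cacng7, an auxiliary AMPA receptor subunit of the TARP family, was up-regulated. It read 10.31, 10.22, 10.36 and 10.31 in B6 and 11.47, 11.42, 11.48 and 11.32 in BTBR, with no overlap and little spread in either strain. The difference was 1.12 ± 0.063 (SE; limma adjusted p = 6.9e-06), a 2.18-fold higher level, with 1.18 on slide 1, 1.06 on slide 2 and 1.10 without BTBR replicates 1 and 2. The other 11 auxiliary subunit genes tested had no call with limma or the rank product, with differences from −0.56 for the cornichon gene Cnih3 to 0.69 for the TARP gene Cacng5. Cacng5 came close (limma adjusted p = 0.17, rank product pfp = 0.0529), and the rank product called it under 4 of 19 alternatives. The hippocampal TARP gene Cacng8 differed by −0.24 and the cornichon gene Cnih2 by −0.26.

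Among 5 kainate auxiliary and binding proteins limma and the rank product differed for C1ql2, a synaptic organizer of mossy fibers that binds kainate receptors. It read 12.24, 10.76, 11.68 and 11.92 in B6 and 9.56, 8.54, 10.13 and 10.90 in BTBR. BTBR replicates 1, 2 and 3 lay below all B6 arrays, and BTBR replicate 4 lay above B6 replicate 2 only. The difference of −1.87 ± 0.49 (SE) was called by the rank product (pfp = 0.0001), and it was called under all 19 alternatives run with that test. The limma adjusted p was 0.0543. Limma called the gene within slide 1 (−2.45, adjusted p = 0.0346), with the slide as a block (adjusted p = 0.0278), after median centring (adjusted p = 0.0453) and without B6 replicate 2 or BTBR replicate 4 (adjusted p = 0.0435 and 0.0195). Within slide 2 the difference was −1.28 (limma adjusted p = 0.385), and without BTBR replicates 1 and 2 it was −1.13 (limma adjusted p = 0.202). The dentate granule cell markers were low in BTBR replicates 1 and 2 but within the B6 range in BTBR replicate 3, and their part in the result was not tested. The other 4 genes of this list had no call with either test over all arrays. Among them, Klhl24 A_51_P168439 differed by 0.22 with no overlap between strains (limma adjusted p = 0.064), and limma called Klhl24 with the deposited log2 values, without BTBR replicate 2 and at a threshold of 0.1.

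Pentraxins gather AMPA receptors at synapses, and both tested genes of that list were called, in opposite directions. Nptx2, an activity-regulated secreted pentraxin, read 10.03, 10.14, 10.38 and 10.18 in B6 and 11.57, 11.16, 11.11 and 10.55 in BTBR, a difference of 0.92 ± 0.19 (SE; limma adjusted p = 0.0191). All BTBR arrays were above B6, but the call was lost without B6 replicate 1, 2 or 4 or BTBR replicate 2 (limma adjusted p 0.0534 to 0.0644), without BTBR replicates 1 and 2 (difference 0.65, limma adjusted p = 0.0781) and within slide 2 (0.55, limma adjusted p = 0.33). The pentraxin receptor Nptxr was measured by probes named Npcd, a locus that joins Cbx6 and Nptxr and overlaps both, so that the transcripts cannot be told apart. Npcd A_51_P158529 read 10.19, 10.18, 10.06 and 10.26 in B6 and 8.96, 8.59, 9.41 and 9.16 in BTBR (difference −1.14 ± 0.16 SE, limma adjusted p = 0.00182). Without BTBR replicates 1 and 2 it differed by −0.89 and was still called (limma adjusted p = 0.0023). The other Npcd probe, A_52_P567167, differed by −0.12 and was not called, so both probes of this locus disagree, and their median was not called (−0.63, limma adjusted p = 0.0654).

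Of 3 RNA editing enzymes, which recode subunit transcripts such as that of Gria2, Adarb2 was called with 1 of 3 probes. A_52_P105429 read 10.01, 9.66, 9.65 and 9.93 in B6 and 9.13, 8.70, 9.21 and 9.21 in BTBR, a difference of −0.75 ± 0.14 (SE; limma adjusted p = 0.00928), and the other probes differed by 0.54 and −0.15. Within slide 2 the called probe differed by −0.58 and was no longer called (limma adjusted p = 0.201), whereas without BTBR replicates 1 and 2 it differed by −0.60 and was called (limma adjusted p = 0.0311). Adarb2 is regarded as catalytically inactive. Adarb1, the enzyme that edits the Gria2 calcium site, differed by 0.52 and 0.41 with its 2 probes (limma adjusted p = 0.186 and 0.285), with 0.89 and 0.69 on slide 1 and 0.15 and 0.13 on slide 2. With both Adarb1 probes all BTBR arrays were above all B6 arrays, as 14.2% of all probes also showed no overlap. The lowest BTBR array, replicate 4, read 12.34 and 14.583, against at most 12.27 and 14.579 in B6. Within slide 1 the first Adarb1 probe was called (limma adjusted p = 0.0399), and without BTBR replicates 1 and 2 the differences were 0.21 and 0.12. The 10 trafficking and scaffold genes, such as Grip1, Pick1 and Dlg4, had no call with limma or the rank product, and their probes stayed between −0.23 and 0.24. Within slide 1 limma called Dlg4, whose probe A_52_P153721 differed by −0.42 there and by 0.096 on slide 2. Of the delta receptor genes, which encode relatives of these subunits, neither was called by limma, and Grid1 was called by the rank product with 1 of its 2 probes. A_51_P496735 of Grid1 read 8.65, 9.14, 9.80 and 9.04 in B6 and 9.81, 9.71, 9.67 and 10.13 in BTBR, so that B6 replicate 3 alone lay within the BTBR range. The difference was 0.67 ± 0.22 (SE; limma adjusted p = 0.127, rank product pfp = 0.0494), and without B6 replicate 3 it was 0.88 and was called by limma (adjusted p = 0.0142). The rank product called Grid1 under 6 of 19 alternatives, and the other Grid1 probe differed by −0.02.

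**Figure D4:**
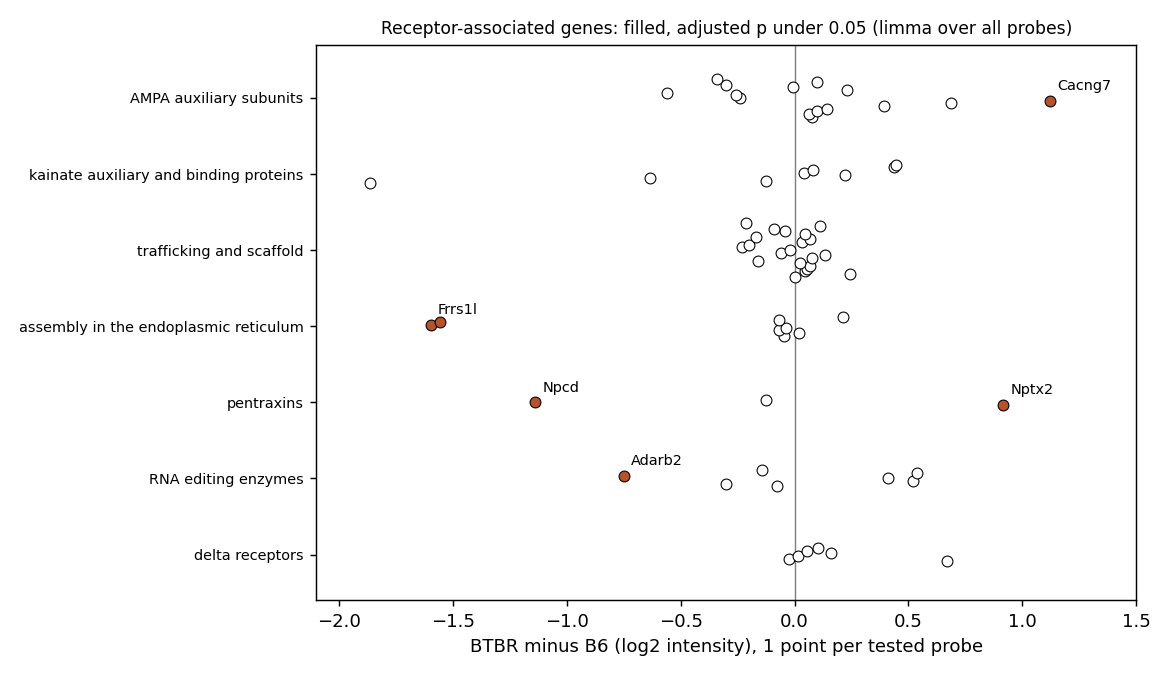
Difference BTBR minus B6 (log2 intensity) of each tested probe of the receptor-associated genes, in 7 lists by role, with filled points for a limma adjusted p under 0.05 over all probes. Frrs1l (2 filled points) and Npcd lie below −1, Adarb2 at −0.75, and Nptx2 and Cacng7 at 0.92 and 1.12.

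Other glutamate receptor families were set beside the subunits. Of the 12 tested NMDA receptor probes 0 were called by limma or the rank product, and 0 had an unadjusted limma p under 0.05 (18.5% of all probes). Of the 12 tested metabotropic receptor probes 3 had an unadjusted limma p under 0.05 and 1 was called, close to the 7.61% of all probes. It was Grm2 A_51_P494725 with −0.70 ± 0.16 (SE, limma adjusted p = 0.0251, rank product pfp = 0.0339). This call was lost without B6 replicate 3, BTBR replicate 1 or BTBR replicate 2, and the other Grm2 probe differed by −0.11. The called probe read 8.51 to 9.14 in B6 and 7.70 to 8.11 in BTBR, where it lay in the range of the untested Grik3 probes. With only probes well above background on all arrays, no metabotropic probe was called. The median differences over the tested probes were −0.043 for NMDA and −0.10 for metabotropic receptors, beside −0.077 for AMPA and −0.06 for kainate subunits. In the same order they were 0.20, 0.059, −0.0037 and −0.076 without BTBR replicates 1 and 2.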

How the data were processed

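Cy3-labeled RNA of 8 hippocampi was measured on single-color Agilent arrays, and their titles gave the strain. The authors deposited mean intensity, median local background intensity and flags per spot, unscaled between arrays; the file headers name Feature Extraction 10.7.3.1. They also deposited log2 values after their own background subtraction and quantile normalization. Probe positions are on mm9, as deposited by the authors.

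Intensities less local background (minimum 0.5) plus an offset of 50 were turned into log2 values and quantile normalized over the 8 arrays; the offset compresses differences of dim probes. Replicate spots were summarized by their median. A probe was tested when it was well above background on 75% of the arrays of a strain, was no control and was not among 154 with outlier flags, which left 27982. The median spot intensity of an array was 378 to 490 over a background of 42 to 56, and the number of arrays sets the precision. Strain was fitted with limma 3.58.1 in R 4.3.3, and the rank product was run with 100 permutations. Figures and sequences used Python 3.11.15, pandas 2.3.3 and matplotlib 3.10.9. Scripts were tested on simulated data.

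The subunits, gene lists and marker lists were chosen with earlier results of these data known. All subunit probes are named, and of each pathway list at most 3 called genes with the smallest p, with Grm2, C1ql2, Grid1, Adarb1, Cacng5, Klhl24 and other genes that limma did not call or that are outside these lists named after their values were seen. Likeness to Grik4 was ranked by Pearson r. Gene names are those of the files. Shisa6, Shisa8 and Syndig1 were not matched to a probe name, and Nptx1 was not tested. Alternatives were another signal, background correction, normalization, filter, flag rule, probe summary, threshold, limma option and block, the deposited matrix, and arrays left out.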

Additional observations from a re-analysis of the deposited data

Results flagged for a closer look

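For Gria1 A_51_P498031, BTBR replicate 4 stood apart from the other BTBR mice with a normalized log2 intensity of 15.64, next to 14.44, 14.56 and 14.60. Its gap to the nearest of them was 0.87 of the range of the group. This was 1 of 40 groups of 4 arrays examined over the 20 subunit probes, and about 1 in 20 is past this limit by chance. With the other Gria1 probe the same mouse read 15.93, beside 16.15 in BTBR replicate 3.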

How the results depend on the processing

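None of the 18 subunit probes was called by limma under most of the 24 alternatives. The exceptions were 1 call with the replicate block (Grik4, −0.63, adjusted p = 0.0326) and 2 within slide 1, and leaving out single arrays gave 0 to 1 (Gria1 A_51_P498031, without BTBR replicate 4). The rank product gave 1 at a pfp of 0.1 or less (Grik4) and 0 to 2 with single arrays left out (Gria1 A_52_P39575 without BTBR replicate 3, Gria1 A_51_P498031 and Grik4 without BTBR replicate 4). Strains without overlap numbered 0 to 1 with single arrays left out (Gria3 A_52_P272364 without B6 replicate 2, Gria1 A_51_P498031 without BTBR replicate 4), and 1 (Gria3 A_52_P179309) without BTBR replicates 1 and 2, an alternative chosen after seeing the data. The median over the subunit probes was −0.12 with the processed signal, −0.11 after median centring and −0.11 to −0.048 with single arrays left out. C1ql2 was called by limma under 7 of 24 alternatives, among them the replicate block (adjusted p = 0.0142). The rank product called 7 pathway genes, and 4 without BTBR replicates 1 and 2 (C1ql2, Cacng7, Frrs1l and Npcd). Pathway genes called by limma were 9 within slide 1 (with Adarb1, C1ql2, Cacng4 and Dlg4 beside the 5) and 3 within slide 2 (Cacng7, Frrs1l and Npcd). Calls of NMDA and metabotropic probes were 2 with the replicate block, 3 within slide 1, and 0 within slide 2, at a threshold of 0.01, with probes well above background on all arrays, with 1 median value per gene, without BTBR replicates 1 and 2, and 0 to 1 with single arrays left out. Over all probes, limma called 1036 within slide 2 and 1196 at a threshold of 0.01, against 2129. The replicate numbers did not pair the mice: same-numbered deviations correlated at −0.14, 0.51, −0.10 and 0.39, and 2 of 4 BTBR mice correlated best with their own number. The cause of these changes was not tested.

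Directions turned for the following differences, none of them called by limma over all 8 arrays. Without BTBR replicates 1 and 2 the values were 0.032 for Gria1 A_52_P39575, 0.010 for Gria2 A_52_P575176, 0.10 for Gria3 A_52_P68221, −0.063 for Gria4 A_52_P153588, −0.16 for Gria4 A_52_P279527, 0.034 for Grik2 A_52_P270135, 0.021 for Grik5, 0.029 for Adarb2 A_52_P682239 and 0.11 for Npcd A_52_P567167. Within slide 2 they were 0.20 for Gria2 A_52_P891243, 0.11 for Gria3 A_52_P68221, −0.086 for Gria4 A_52_P153588, −0.031 for Gria4 A_52_P279527, 0.0097 for Grik2 A_52_P270135 and 0.014 for Grik5, and within slide 1 −0.068 for Gria3 A_52_P179309, 0.031 for Grik1 A_52_P660400 and 0.055 for Grik2 A_52_P655120. With 1 median value per gene Gria3 gave 0.026. Of the 3 Adarb2 probes that median returns the middle one, A_52_P105429 (−0.75), and so gives no other estimate for A_52_P265084. Median centring gave −0.020 for Gria3 A_52_P179309, and the processed signal gave 0.0038 for Grik2 A_52_P270135. Leaving out single arrays gave −0.21 to 0.018 for Gria2 A_52_P891243, −0.054 to 0.10 for Gria3 A_52_P179309, −0.15 to 0.017 for Gria3 A_52_P68221, −0.0017 to 0.15 for Gria4 A_52_P153588, −0.072 to 0.053 for Grik1 A_52_P660400, −0.066 to 0.053 for Grik2 A_52_P270135, −0.13 to 0.00081 for Grik5 and −0.25 to 0.080 for Npcd A_52_P567167. Frrs1l and Cacng7 were called under all 24 alternatives. Signal over background limits Grik1, Grik3, Gria3 A_52_P272364 and Gria4 A_52_P153588.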
